A study of Homo sapiens with 2 samples.

Results

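Poly(A) sites, the positions at which mRNAs end and receive their tails, were selected here by how many reads covered them. The 429 sites described had at least 20 reads in each of the 5 subsamples of a PABP1212 library and fewer than 10 reads in at least 1 of the 5 subsamples of a PABPC1 library, out of 8995 sites with any read. They are called the less abundant sites, a name that holds only against the better-covered sites defined below. Most of the 8995 sites had too few PABP1212 reads to enter either group. Read numbers chose them, so read numbers are given below as a description, whereas tail lengths played no part in the choice. A further 850 sites, called better covered, met the same PABP1212 minimum and also had at least 10 reads in each PABPC1 subsample. Both groups together make up the 1279 sites tested for tail length.

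The reads come from HCT116, a human colon cancer line, sequenced as native RNA on nanopores. In polyclonal lines, the endogenous PABPC1 and PABPC4 proteins carried a degron tag (mAID), through which indole-3-acetic acid (IAA) triggers their destruction. A transgene, integrated in several copies by a Sleeping Beauty transposon, supplied PABPC1 in 1 line and PABP1212, a PABPC1 with RRM1 and RRM2 duplicated, in the other. Cells were given 1 μg/mL doxycycline and 0.5 mM IAA for 13 days and sorted by expression of the variant into 4 gates of 25% each, named here lowest, second-lowest, second-highest and highest. The uninduced subsample was untreated and unsorted and carried the same tags and transgene. Each subsample was sequenced once, so no group has a replicate, and the transgene cannot be told apart from its library nor a level from its set of barcoded adapters.

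Cytoplasmic poly(A)-binding proteins coat the tail of an mRNA through their RNA recognition motifs (RRMs), of which RRM1 and RRM2 bind poly(A) most tightly. They link the tail to translation initiation, and they both shield it from deadenylases and help to recruit them. Tail length therefore depends on the balance of synthesis, protection and trimming. The files give sites by chromosome, position and strand with no gene, and their positions do not match the hg38 named in the submitters' processing notes: 239 of the 8995 sites (2.66%) lay within 25 nt of a GENCODE v29 transcript end, and 122 lay beyond the last transcript end of their chromosome. Sites are therefore named by chromosome, position and strand (plus or minus) as in the files, and no gene or sequence was assigned.

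The label under which these sites were collected, measured only in PABP1212, did not hold. All 429 sites had reads in the PABPC1 library, between 29 and 198 per site over its 5 subsamples (median 77), against 127 to 779 (median 289) in the PABP1212 library. Of the 429 sites, 264 (61.5%) fell under 10 reads in a single PABPC1 subsample, 116 in 2, 37 in 3, 11 in 4 and 1 in all 5. Most shortfalls lay in the PABPC1 uninduced subsample, where 269 sites had fewer than 10 reads, and at its lowest level, where 230 did. Its second-highest level left 2 sites short.

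The PABPC1 library was the shallower one and held 65862 to 193416 reads per subsample against 139869 to 630986 with PABP1212. In uninduced cells the PABP1212 library was 3.12 times deeper. At their PABP1212 share of reads, 243 of the 429 sites would have had fewer than 10 PABPC1 reads there, and 269 did. At the lowest level, 94 sites would have fallen short at their PABP1212 share and 230 did. At the second-lowest level 20 would have and 66 did, at the second-highest 1 would have and 2 did, and at the highest 38 would have and 89 did. More sites fell short than their PABP1212 shares give in every subsample. The PABP1212 reads and the PABPC1 shortfall itself both chose the sites. An excess of shortfalls was therefore built into the choice and is no finding about these sites.

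The site chr4:7061781 (minus) alone had fewer than 10 reads in every PABPC1 subsample, with 29 reads in all. In PABP1212 it had 23 uninduced reads and 21, 30, 84 and 67 in order of rising level, with median tails of 107 nt and then 110, 58, 71 and 82 nt. The site chr19:49298323 (minus) was the only one with 0 reads in a PABPC1 subsample, the lowest level, where a count of 0 allows up to 3 reads. It had 15, 22 and 19 reads at the higher PABPC1 levels, so it was present in that library. Both sites were picked out after their values were seen.

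In PABP1212 cells, tails at the less abundant sites were longest at the lowest level of the transgene and shortest at the upper levels. In uninduced cells, the middle one of the 429 site medians was 100 nt (exact binomial 95% interval over sites, 98 to 102). It was 128.5 nt (125 to 132.5) at the lowest level, 102 nt (99 to 105) at the second-lowest, 87 nt (85.5 to 89) at the second-highest and 88 nt (86 to 89.5) at the highest. The lowest level thus stood above uninduced and the upper pair below it, while the second-lowest level was close to uninduced. From the 10th to the 90th percentile of sites, medians ran from 80.9 to 125 nt in uninduced cells, from 98.5 to 163 nt at the lowest level and from 73.9 to 110 nt at the highest. The ranges of single sites therefore overlapped widely between levels.

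**Figure D1:**
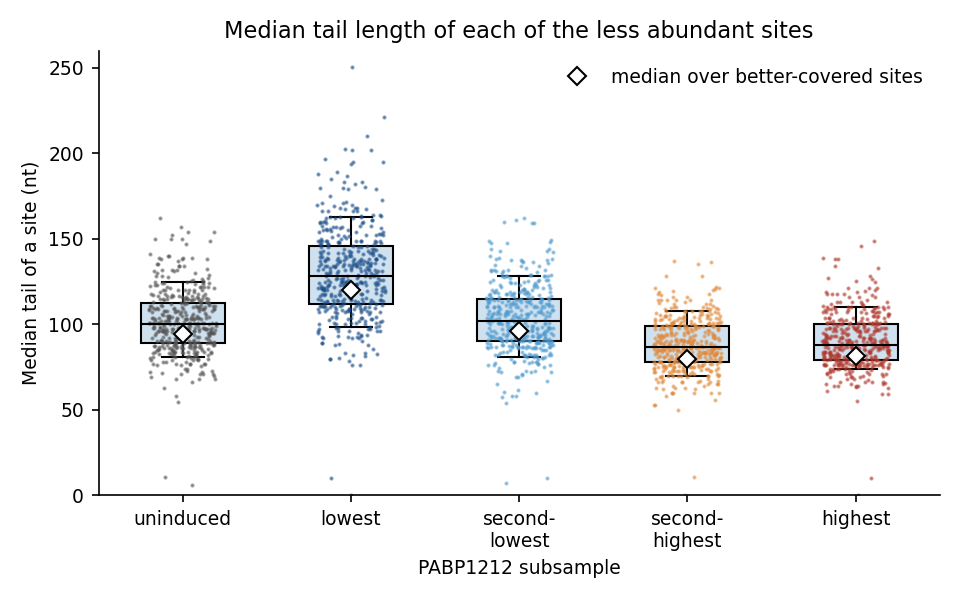
Median tail length in nt (vertical axis) of each of the 429 less abundant sites (points) in the 5 PABP1212 subsamples (horizontal axis). Boxes span the quartiles with the median as a line, whiskers the 10th to 90th percentiles, and diamonds mark the median over the 850 better-covered sites, which lies below the box's line in every subsample; 2 sites stay near the bottom throughout.

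Most single sites moved the same way. From uninduced to the lowest level, 373 of the 429 sites had a longer median and 54 a shorter one, with a median change of +28 nt (25 to 32). At the second-lowest level 222 sites were longer and 204 shorter. At the second-highest level 325 were shorter and 100 longer (median −12 nt, −14.5 to −10), and at the highest 306 were shorter and 119 longer (median −12 nt, −14.5 to −9.5). All 4 changes share the uninduced subsample, so they are not independent of each other. Between the lowest and the highest level, which share no reads, 407 of the 429 sites (94.9%) were shorter at the highest, by a median of 39 nt, and 20 were longer.

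The differences between neighbouring levels grew smaller upward. From lowest to second-lowest level the median change was −26 nt (−29 to −22.5), from second-lowest to second-highest −15 nt (−17 to −12.5), and from second-highest to highest +1 nt (−0.5 to 2.5). Of the 429 sites, 277 (64.6%) were lower at both of the first steps. In 166 of these the last step was upward, in 104 downward. The shortest of the 4 levels was the second-highest for 203 sites and the highest for 164. A lone site was longer at every step.

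The better-covered sites moved by similar amounts from tails that were shorter in every subsample. Their medians were 94.5 nt in uninduced cells and 120, 96.2, 80 and 81.8 nt over the 4 levels in rising order, some 5.5 to 8.2 nt under those of the less abundant sites. From lowest to highest level their median change was also −39 nt (−40 to −38), with 834 of 850 sites (98.1%) shorter. From uninduced to the highest level they changed by −13 nt (−14.5 to −12.5). The share of sites shorter at the highest level than in uninduced cells was 71.3% among the less abundant and 84.4% among the better-covered sites. Fewer reads widen the counting error of each less abundant site: the exact 95% interval of a site's own median spanned 94 nt at the lowest level in the typical less abundant site and 65 nt in the typical better-covered site, and 38 against 22 nt at the highest. What these widths contribute to the gap between the shares was not tested.

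Just inside and just outside the PABP1212 threshold, medians lay within 4 nt of each other in each subsample. The 239 sites with a PABP1212 minimum of 20 to 24 reads had medians of 98 nt uninduced and 130, 101.5, 88 and 88.5 nt over the levels. The 457 sites just outside, with a minimum of 15 to 19 reads, had 100 nt and 126, 102, 86.5 and 88 nt. On the PABPC1 side, the 161 sites with a minimum of 8 or 9 reads had 99 nt and 127, 99, 85.5 and 87.5 nt, and the 115 just outside, at 10 or 11 reads, had 97 nt and 118, 100.5, 84.5 and 87 nt. At the lowest level the sites just inside the PABPC1 threshold thus had the longer median, 127 against 118 nt.

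Short tails were most frequent at the upper levels of PABP1212, while the share of long tails there was close to that in uninduced cells. Pooled over the less abundant sites, tails under 30 nt made up 6.38% of 14006 reads in uninduced cells (Clopper-Pearson 95% interval 5.98 to 6.80). They made up 7.79% (7.32 to 8.28), 9.79% (9.40 to 10.2), 13.5% (13.2 to 13.8) and 11.8% (11.5 to 12.1) over the levels in rising order. Every level lay above uninduced, the upper pair about 2 times as high. These intervals cover counting error only. At the lowest level the excess lay among the shortest tails. Tails under 10 nt made up 2.87% of reads there against 1.1% uninduced, most of them reads with no tail (2.33% and 0.785%). Tails from 10 to under 20 nt made up 2.19% against 1.67%, and those from 20 to under 30 nt 2.73% against 3.61%. For reads with no tail, level and adapter set cannot be told apart, as described below.

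Tails of 150 nt or more made up 22.4% of reads (21.7 to 23.1) in uninduced cells and 41.2%, 29.7%, 22.5% and 21.9% over the sorted levels. At the upper levels the share was thus within the uninduced interval. Tails of 200 nt or more made up 8.20% (7.75 to 8.67) uninduced, 22.7% at the lowest level and still 9.88% (9.60 to 10.2) and 9.20% (8.92 to 9.49) at the upper levels. The upper levels therefore held more very short and slightly more very long tails than uninduced cells at once, although their median was lower.

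**Figure D2:**
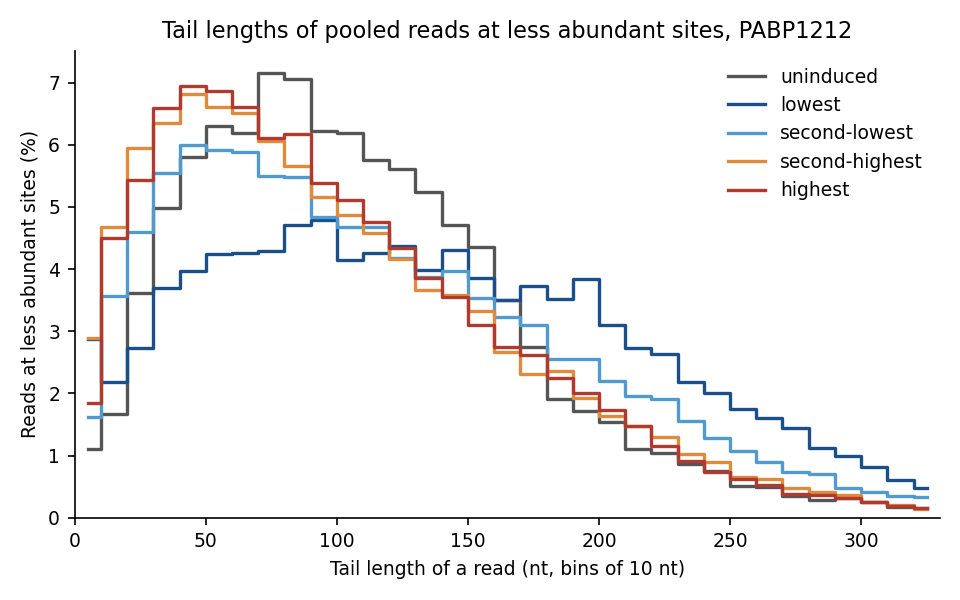
Share of reads in percent (vertical axis) by tail length in bins of 10 nt (horizontal axis) for reads pooled over the 429 less abundant sites, 1 line per PABP1212 subsample; tails of 330 nt or more are not drawn. Uninduced reads peak at 70 to 90 nt, the second-lowest and the upper levels peak at 40 to 60 nt, and the lowest level is broad with a long right shoulder.

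The most frequent bin of 10 nt differed between uninduced cells, the lowest level and the other levels. It began at 70 nt in uninduced cells, with 7.16% of reads. At the second-lowest, second-highest and highest levels it began at 40 nt, with 5.99%, 6.82% and 6.95% of reads. A peak there was thus not particular to the upper levels. At the lowest level it began at 90 nt but held 4.79% of reads, since the distribution was flat.

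Within single sites the lower and upper ends of the tail distribution moved apart. The site's lower quartile was 65.2 nt in uninduced cells (median over 429 sites) and differed by −17 nt (−18 to −15.8) at the second-highest and −14 nt (−15.8 to −12) at the highest level, with 376 and 367 sites lower. The upper quartile was 142 nt in uninduced cells and differed by −0.75 nt (−3 to 1.5) and −0.25 nt (−2.5 to 1.75) at these levels, with 209 and 208 sites higher and 217 and 215 lower. So the lower quartile was down in most sites, whereas the upper quartile was up in about as many sites as it was down.

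At the lowest level both quartiles were up, the upper by +43.8 nt (40.2 to 47.8) and the lower by +12 nt (10 to 14). At the second-lowest level they went opposite ways, the upper by +18.8 nt (15.5 to 21.5) and the lower by −7.5 nt (−9.5 to −4.75), which left the median near its uninduced value. The interquartile range within a site, 75.8 nt in uninduced cells, was 110, 102, 92 and 87.5 nt over the levels. It was wider than uninduced in 383, 354, 333 and 306 of the 429 sites. Among the better-covered sites the upper quartile was lower at the upper levels, by −5 nt (−6.25 to −4) and −6.25 nt (−7 to −5). The difference between the groups of sites was not tested.

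**Figure D3:**
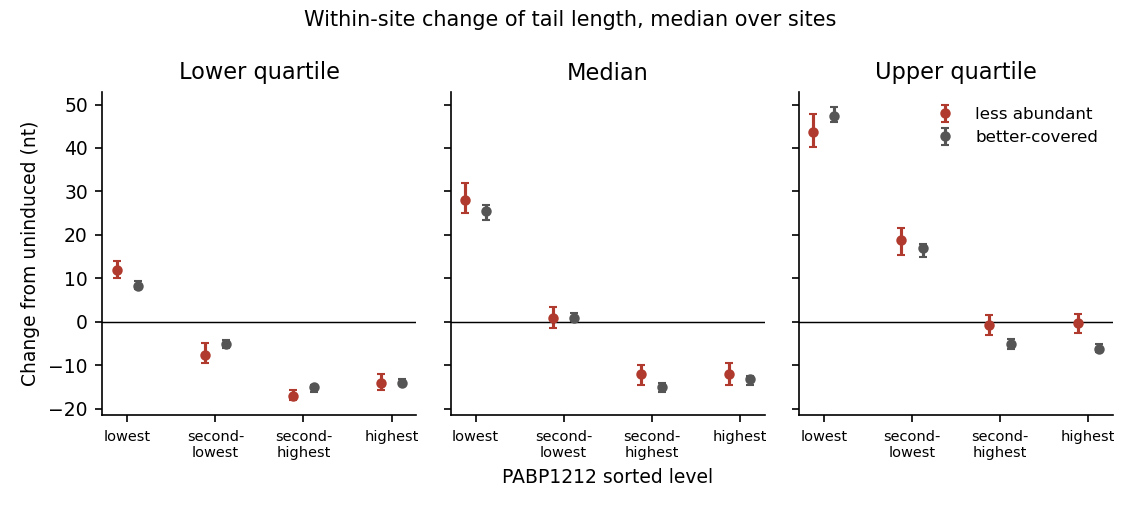
Change from uninduced in nt (vertical axis) of the lower quartile, the median and the upper quartile of tail length within a site, at the 4 PABP1212 levels (horizontal axis), as the median over sites with its exact binomial 95% interval. Red points are the 429 less abundant sites and grey points the 850 better-covered sites; at the upper levels the lower quartile is down in both, and the upper quartile of the less abundant sites sits at 0.

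Reads with a tail of exactly 0 nt followed a different order. They made up 0.785% of reads at the less abundant sites in uninduced cells and 2.33%, 0.941%, 2.20% and 1.01% over the sorted levels of PABP1212. With PABPC1 they made up 0.424% and then 0.934%, 0.589%, 1.15% and 0.600%. In both libraries the lowest and second-highest levels had the largest shares. These levels carry the same adapters in both libraries, so level and adapter set cannot be told apart. A pair of nearly untailed sites, described below, weighed on the PABP1212 shares. Of these reads, chr11:93463674 held 16 uninduced and 36, 37, 28 and 13 over the levels in rising order. The site chr10:101996804 held 2 and then 4, 10, 17 and 14. The shares were not recomputed without this pair.

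**Figure D4:**
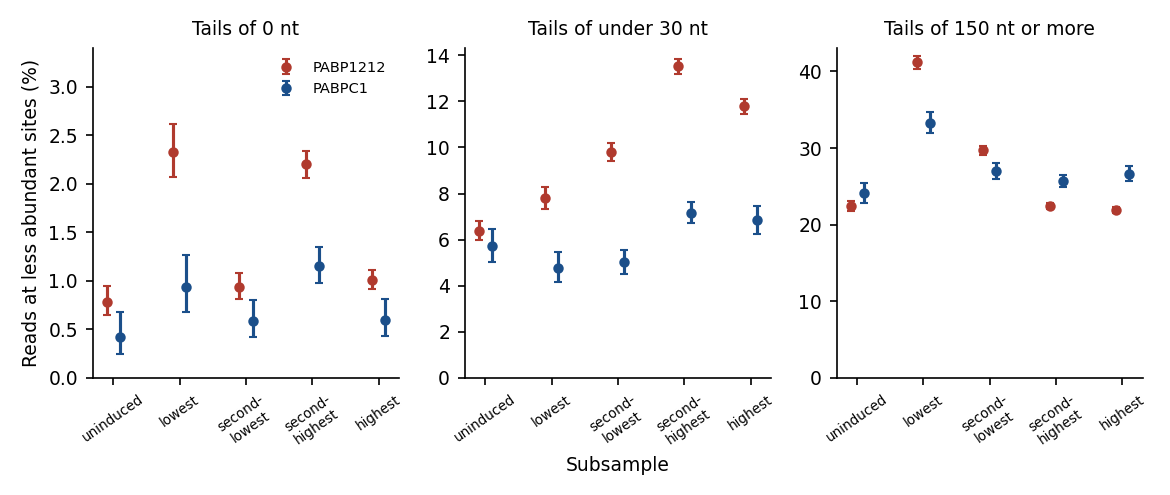
Share of reads in percent (vertical axes) with tails of 0 nt, under 30 nt and 150 nt or more, pooled over the 429 less abundant sites, in the 5 subsamples (horizontal axes) of PABP1212 (red) and PABPC1 (blue), with Clopper-Pearson 95% intervals. Tails under 30 nt reach 13.5% with PABP1212 and 7.16% with PABPC1; tails of 150 nt or more are highest at the lowest level of both.

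Site by site, few less abundant sites had a trend that passed a test. A limma fit of the mean of log2(nt + 1) within the PABP1212 library gave a median trend of −0.13 log2 per level over the 429 sites and −0.14 over the 850 better-covered sites. The trend was negative in 393 of the 429 sites. At a limma adjusted p under 0.05 (Benjamini-Hochberg over all 1279 sites), 1 of the 429 sites passed, toward shorter tails (0.233%), against 93 of all 1279 sites (7.27%) and 92 of the 850 better-covered sites (10.8%). None of the 1279 sites passed toward longer tails (0%), nor did any under the alternatives other than subtracting the subsample median, which gave 4. At an unadjusted p under 0.05 there were 14 of the 429 (3.26%) and 226 of all 1279 (17.7%). The median standard error was 0.15 log2 per level at the less abundant and 0.10 at the better-covered sites. The fit weights sites by reads. With no weights, 95 of the 429 sites (22.1%), 258 of all 1279 (20.2%) and 163 of the 850 better-covered sites (19.2%) passed, so the gap in calls between the groups of sites was not there in that setting. Without the highest level, 127 of the 429 (29.6%) and 693 of all 1279 (54.2%) passed, with a median slope over the 429 sites of −0.24 log2 per level. Without the lowest level none of the 1279 passed (56 at an unadjusted p under 0.05), and that median was −0.07. Error here means departure from linearity over 4 levels, which may be technical. A site's own error has 2 residual degrees of freedom. The fit draws it toward the error over all 1279 sites, which counted as 34.6 prior degrees of freedom.

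For sorted cells on average against uninduced ones, no site passed in the same limma fit, in either direction (0% of 1279). At an unadjusted p under 0.05 there were 23 of the 1279 sites, 1 of them among the 429. Over the 429 sites the median change was −0.10 log2, with 288 sites negative and 141 positive. It was +4.03 nt when mean tails were fitted without a log, so its sign depends on the scale. It ranged from −0.19 without the lowest level to −0.0095 without the second-highest, so its size depends on single subsamples. The average joins a lowest level above uninduced with upper levels below it, and doxycycline, IAA, sorting and adapters differ as well.

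The site that passed was chr17:38974369 (minus). Its median tail was 102 nt in uninduced cells (exact 95% interval 88 to 139, 47 reads). It was 210 nt (157 to 239) at the lowest level from 30 reads, 129 nt (91 to 154) at the second-lowest, 76 nt (62 to 92) at the second-highest and 74 nt (64 to 84) at the highest from 199 reads. The intervals of the lowest and highest levels did not overlap. The same reads entered the fit that picked the site, so this is no separate support. The fitted slope was −0.38 ± 0.12 log2 (SE) for each step in level, with a limma adjusted p of 0.0410. Tails under 30 nt made up 2.13% of its uninduced reads, 0 of its 30 reads at the lowest level and 17.1% at the highest. In PABPC1 cells it had 141 reads with a pooled median of 105 nt, of which 3 were at the lowest level, so a matching trend could not be measured. Its trend stayed negative under all 11 alternatives and kept its call under 8 of them; the call was lost on per-site medians (adjusted p = 0.0688) and without the lowest or second-lowest level (0.999 and 0.753).

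Only 5 of the 429 sites had at least 50 reads in each PABP1212 subsample. The site chr16:23592308 (minus) had median tails of 101 nt uninduced and 109, 88, 72 and 66 nt over the levels, a trend of −0.19 log2 per level. At chr9:94972622 (minus) they were 95.5 nt and then 109, 85, 80.5 and 71 nt, a trend of −0.23. For chr19:8553998 (plus), the deepest with 779 reads, they were 104 nt and then 120, 102.5, 84 and 84 nt, a trend of −0.17. All 5 sites, these 3 and the pair described next, were below uninduced at both upper levels.

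The remaining pair had slopes nearer 0. At chr10:102124583 (plus) medians were 125.5 nt uninduced and 139.5, 110, 110 and 101 nt over the levels, a trend of −0.07 log2 per level. At chr11:62656332 (plus) they were 112.5 nt and then 161, 89, 105 and 109 nt, a trend of −0.09. Its second-lowest level, not an upper level, was the shortest. The lowest limma adjusted p among these 5 sites was 0.257.

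Among the 79 sites with at least 30 reads in each PABP1212 subsample, the next steepest slopes did not pass the test. At chr1:113214238 (plus) medians were 162 nt at the lowest level, 115 at the second-lowest, 74 at the second-highest and 82 at the highest, against 108 nt uninduced (−0.26 log2 per level; limma adjusted p 0.266). The site chr2:26413698 (minus) had 153, 100.5, 78 and 79 nt against 96 nt (−0.28). At chr5:34925787 (plus) there were 114, 115, 88 and 82.5 nt against 130 nt (−0.24), so it lay below uninduced at every level. The site chr20:3028896 (plus) held 120, 128 and 114 nt over the first 3 levels and 69 nt at the highest alone (−0.24).

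The highest fitted trends of these 79 sites belonged to 3 sites. A pair had medians below uninduced at the lowest level, and the last had medians above uninduced at every level. The first, chr22:43014819 (minus), had 98 nt uninduced and 79.5, 78, 71 and 77 nt over the levels. At chrX:41209462 (plus) medians were 126.5 nt and then 104.5, 100, 84 and 119 nt, and the slope was +0.16 ± 0.14 log2 (SE) with a limma adjusted p of 0.485. The last, chr19:18390511 (minus), with 707 reads, had 85.5 nt and then 96, 106, 98 and 96.5 nt. Its share of tails under 30 nt was 11.9% uninduced, 13.8% at the lowest and 8.41% at the highest level, so these levels stood in the reverse of their pooled order. None of the 3 passed, and the fitted directions of chr22:43014819 and chr19:18390511 turned under several alternatives.

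A pair of sites, picked out after their values were seen, had almost no tail in any subsample. At chr11:93463674 (minus) there was a median tail of 6 nt uninduced and 0, 7, 0 and 0 nt over the PABP1212 levels, from 24 to 80 reads each. In PABPC1 cells its pooled median was 0 nt over 73 reads. At chr10:101996804 (minus) it was 11 nt and then 10, 10, 10.5 and 10 nt, and 11 nt over 80 pooled PABPC1 reads. Their tails stayed short in both libraries, while all other less abundant sites had uninduced medians of at least 54.5 nt.

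Sites differed in their uninduced tails. Of the sites with at least 30 reads throughout, the longest uninduced tails were 150, 141 and 138 nt, at chr2:61705069 (minus), chr20:42090193 (plus) and chr14:102517129 (plus). At the highest level they had 100.5, 100 and 100 nt. The shortest uninduced tails were 63, 72 and 76 nt, at chr19:2273349 (plus), chr1:156711901 (minus) and chr7:6063402 (minus). At the highest level these had 86, 81 and 85.5 nt. Sites picked as extremes in 1 subsample tend to be nearer the middle in any other, so these convergent values are no measure of change.

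A grouping from the other library avoids that selection, and by it sites with longer PABPC1 tails also had longer PABP1212 tails. Ranked by their pooled PABPC1 tail, the third of the sites with the shortest tails (143 sites, up to 100 nt) had PABP1212 medians of 94 nt uninduced and 120, 94, 80 and 81 nt over the levels. The middle 143 sites had 101.5 nt and then 131, 102, 88 and 88 nt. The 143 sites with the longest (115 nt or more) had 106 nt and then 136, 113, 95.5 and 97 nt. The order of the 3 groups was kept in every PABP1212 subsample, and each group was longest at the lowest level.

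The same sites could be compared between the transgenes where PABPC1 reads allowed, with at least 10 reads. In uninduced cells, 160 of the 429 sites qualified, and PABP1212 minus PABPC1 was −4.25 nt (−8 to 0.5), an interval that includes 0. At the lowest level it was +5.5 nt (1 to 12, 199 sites), with PABP1212 longer at 116 and shorter at 80. At the second-lowest it was −4.5 nt (−9 to −1, 363 sites). At the second-highest and highest levels it was −16.5 nt (−19 to −14, 427 sites) and −16.5 nt (−20 to −13, 340 sites), with PABP1212 shorter at 340 and 264 of these sites. The libraries thus lay near each other in uninduced cells and at the lower levels, and apart at the upper levels. Transgene and library cannot be told apart, and the difference was not tested.

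**Figure D5:**
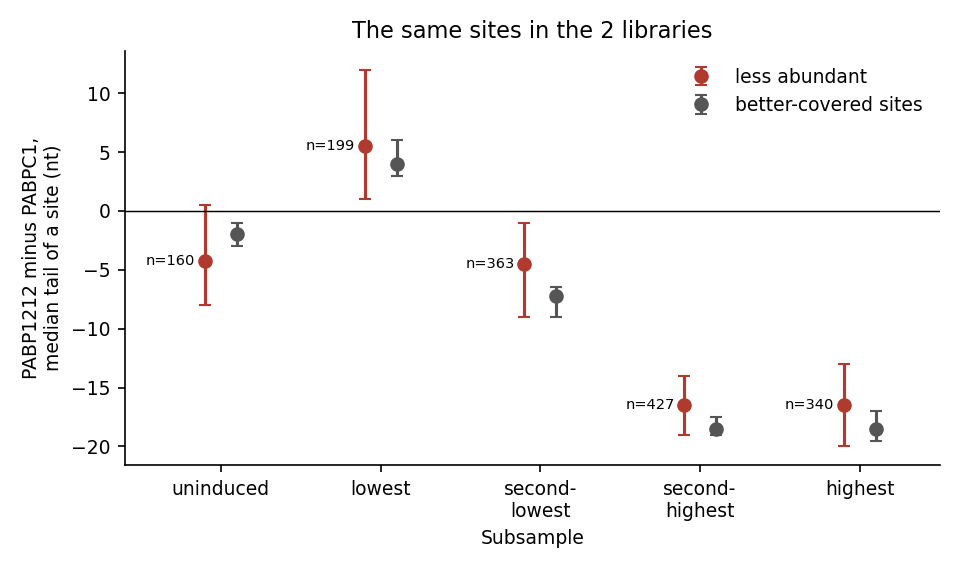
PABP1212 minus PABPC1 difference in the median tail of the same site in nt (vertical axis) in the 5 subsamples (horizontal axis), as the median over sites with its exact binomial 95% interval. Red points are the less abundant sites with at least 10 PABPC1 reads (their number beside each) and grey points the 850 better-covered sites; the red points run from +5.5 nt at the lowest level to −16.5 nt at the upper levels.

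In PABPC1 cells the less abundant sites were also longest at the lowest level, and their medians lay nearer each other at the remaining levels. Over the sites with at least 10 reads in each subsample, medians were 101.5 nt uninduced (160 sites) and 122.5, 109.5, 104 and 104.5 nt over the levels (199, 363, 427 and 340 sites). Since the sites differ between subsamples, reads pooled over all 429 sites are the fuller comparison. Their medians were 101 nt uninduced and 121, 109, 103 and 105 nt over the PABPC1 levels, against 99 nt and 128, 102, 87 and 88 nt with PABP1212. Tails under 30 nt made up 5.72% of pooled PABPC1 reads in uninduced cells (5.02 to 6.48) and 7.16% (6.73 to 7.62) at the second-highest level. That level with PABP1212 had 13.5%.

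The share of reads at these sites was highest at the lowest level, where the rule weighed most. They held 6.64% of uninduced PABP1212 reads and 8.75%, 7.18%, 6.90% and 6.86% over the sorted levels. With PABPC1 they held 5.93% and then 6.83%, 6.81%, 6.82% and 6.68%. At the lowest PABP1212 level, 20 reads stood for 143 CPM (counts per 1e6 reads of the subsample), against 94.8 CPM in uninduced cells and 34.5 CPM at the highest level. The lowest level held the site's smallest read number for 265 of the 429 sites, and 174 had 20 to 24 reads there. A site had to be well represented at that level to be kept, so this share follows the rule and is no finding.

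Set against the lowest PABP1212 level, at the highest the share of reads was lower for 334 of the 429 sites and higher for 95 (median −0.39 log2), while the better-covered sites had a median of +0.07 log2. Between second-highest and highest level, which the minimum hardly touched, the medians were −0.03 and −0.01 log2. The 3 largest increases among sites with 30 reads throughout were 0.68 log2 at chr17:38974369, 0.62 at chr2:120130119 (plus) and 0.59 at chr12:56665485 (minus). The first ran from 214.5 to 344 CPM between these levels. The lowest such log2 difference of all 429 sites was that of the nearly untailed chr11:93463674, at 415 CPM at the lowest level, 264 and 80.8 at the next and 41.5 at the highest, or −3.32 log2, and 156.5 CPM uninduced. These shares say nothing of total mRNA, and no test was run on them because read numbers chose the sites.

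By position, the less abundant sites were spread over 23 chromosomes, with 213 on the plus and 216 on the minus strand. Another site lay within 500 nt on the same strand for 87 of them (20.3%), close to 19.4% of the better-covered sites and below 34.8% of all 8995 sites. Neighbours may share a gene.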

How the data were processed

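Tails were read by nanopore direct RNA sequencing in 2 libraries of 5 subsamples, with kit SQK-RNA004, custom barcoded adapters and an input of 1 μg total RNA, per the labels' protocols. The deposited tables give, per the file headers, the subsample, poly(A) site and tail length in nt of each read, used as deposited. Per the submitters' processing notes, minimap2, Bowtie2 and hg38 were used. The tail caller is not given in the sources used here, nor is the demultiplexing tool. The deposited barcode table lists 3 barcodes per sorted level and 1 per uninduced subsample, merged by the authors. Reads of 1 unlisted name in each table (2.86% of PABPC1 and 5.63% of PABP1212 reads) were left out.

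Members and lists were chosen with earlier results of these data known. Reads were counted per site. Shares are CPM of listed reads. Intervals of medians are exact binomial (order statistic), and like those of shares cover counting error, or the spread over sites, and not replicates. limma 3.58.1 (R 4.3.3) was fitted to 1279 sites in the 5 PABP1212 subsamples, weighted by reads, with sorted against uninduced and centred level rank as terms; p-values were Benjamini-Hochberg adjusted with a threshold of 0.05. Simulated data (1279 sites, 5 draws) held independent counting error alone, without the shifts shared by whole subsamples. Trends of 0.2 log2 per level were recovered at 31.5% and of 0.5 at 99.7% of changed less abundant sites. Replacement changes of 0.5 log2 were recovered at 14.6%. Unchanged sites gave 16, 35 and 16 false calls in these 3 settings in turn. With nothing changed, the trend gave 0 calls. Recovery with the shared shifts present was not tested. Sites were named by read number, trend, uninduced tail, share change and adjusted p. The minimum of 50 reads for naming left 5 sites, so 30 was added after the read numbers were seen, and the sites at the thresholds are given as groups. Other steps used Python 3.11.15 with SciPy 1.17.1, pandas 2.3.3, NumPy 2.4.6 and, for plots, Matplotlib 3.10.9. Alternatives are given in the closing section.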

Additional observations from a re-analysis of the deposited data

Results flagged for a closer look

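The libraries were compared at the same less abundant sites, those with at least 10 PABPC1 reads in both subsamples compared. At the upper levels, the median change from uninduced cells was negative with PABP1212 and near 0 with PABPC1. At the second-highest level it was −14 nt with PABP1212 (exact binomial 95% interval over sites, −18 to −10) and +1 nt with PABPC1 (−5 to 4) over 159 sites, of which 119 were shorter with PABP1212 and 77 with PABPC1. At the highest level it was −12 nt (−17 to −8) and +0.5 nt (−8 to 5.5) over 125 sites, of which 97 and 59 were shorter. Both PABPC1 intervals include 0. There is 1 library per transgene, and the difference was not tested.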

How the results depend on the processing

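No paired analysis was possible because each transgene has 1 library and the labels give no replicate numbers. The number of less abundant sites with a tail trend past the limma adjusted threshold, 1 of 429, and 93 of all 1279, was 95 (258 of all) with no weights, 11 (259) without tails of 0 nt, 10 (247) without tails under 10 nt, 7 (190) on mean tails in nt, 2 (15) with the subsample median subtracted, 0 (55) on per-site medians and 0 of 5 (66 of 411) with at least 50 reads. It ranged from 0 to 127 when a level was left out: 0 (0 of all) without the lowest, 0 (7) without the second-lowest, 53 (422) without the second-highest and 127 (693) without the highest. The median trend of −0.13 log2 per level kept its sign in these settings except with the subsample median subtracted (0.0095), which removes the shared shift; leaving out the lowest level gave −0.07, and leaving out the highest −0.24. The number of replacement changes among the 429 sites was 0 throughout, and 2 of all sites passed with subsample medians subtracted and 2 without the lowest level. The median replacement change, −0.10 log2, was 4.03 nt without a log, 0.0035 with subsample medians subtracted, −0.015 on per-site medians, −0.063 with no weights, −0.040 without tails of 0 nt, −0.028 without tails under 10 nt, −0.19 without the lowest level, −0.0095 without the second-highest and −0.021 without the highest. The median tail at the lowest level, 128.5 nt, was 121 nt at the 79 sites with 30 or more reads; under the other alternatives medians stayed within the intervals given. Of all reads at the 1279 tested sites, the less abundant sites held 9.40% uninduced and 13.9%, 10.9%, 10.2% and 10.1% over the levels. Of the 13 sites whose trends were repeated, chr17:38974369 is described above and passed under 8 of 11 alternatives; among the rest 26 values passed that had not. Slopes of 4 sites turned. At chr19:18390511 the slope was −0.0203 on medians, −1.94 nt without a log, −0.0452 without tails of 0 nt and −0.0575 without tails under 10 nt; without a level it ranged from −0.0118 to 0.0845, and with the subsample median subtracted it was 0.20 and passed (limma adjusted p 0.0431). At chr22:43014819 it was −0.0065 on medians, −4.25 nt without a log, −0.0512 without tails of 0 nt and −0.0467 without tails under 10 nt. At chr10:102124583 it was 0.0661 with the subsample median subtracted and ranged from −0.149 to 0.0116 without a level. At chr11:62656332 these were 0.0539 and −0.180 to 0.0781. The cause was not tested.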

Other observations

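In 12 cases a less abundant site lay under 500 nt from a better-covered site on its strand. The less abundant site minus its neighbour differed in median tail by +4.25 nt in uninduced PABP1212 cells (exact binomial 95% interval −18.5 to 25) and by +13.8, −9, +4 and +5.75 nt over the sorted levels in rising order. All 5 intervals include 0, which at 12 pairs leaves differences of this size undetectable.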
